A study of Homo sapiens with 346 samples.

Results

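The comparison describes live HCT-116 cells at the 2 ends of an S-phase score, the 30 cells with the highest score against the 30 with the lowest. The line HCT-116 was derived from a colorectal carcinoma. The cells were chosen by their own expression values: the score of a cell was its mean log2(TPM + 1) over 10 genes that are expressed most around DNA replication (PCNA, MCM2, MCM4, MCM5, MCM6, RRM2, TYMS, CDC6, GINS2 and UHRF1), where TPM is the abundance of a gene's transcripts, corrected for length and scaled to the same sum in each cell. The 60 cells were taken from 91 live HCT-116 cells, and the tables of the whole series hold 334 cells. The other 31 live cells lay between the ends and are called the middle cells.

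The study compared live and methanol-fixed single cells of HCT-116 and HepG2 by Smart-seq2, a full-length protocol that primes on poly-A tails. All 60 cells were live, untreated cells, grown in DMEM with fetal bovine serum and antibiotics and sorted into wells with dead cells gated out. The HCT-116 experiment was done once, so that high and low cells were drawn from the same culture and all live HCT-116 cells count as 1 sample. The spread given below is over cells, no p-value was computed, and no gene was tested against replicate cultures.

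During S phase the genome is copied once. In G1, origins are licensed by loading of the MCM helicase. Cyclin E with CDK2 then relieves the RB family's hold on E2F factors, which switch on genes for replication enzymes, nucleotide supply and histones. Genes of mitosis are held down by the DREAM complex in G1 and are expressed from late S phase to mitosis. HCT-116 cells in culture cycle without synchronisation, so a harvest holds cells of every phase.

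The score ran from 7.63 down to 1.63 over the 91 cells. The cell just inside the high group scored 6.62 and the cell just outside it 6.60. The cell just inside the low group scored 5.48 and the cell just outside it 5.52. The high cells were close together, with a score of 7.05 ± 0.25 (mean ± SD over 30 cells), while the low cells spread over 3.77 ± 1.28. The 10 score genes differed by construction. For example, GINS2, a subunit of the replicative helicase, had a median of 123.6 TPM in high cells and 4.92 in low cells.

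Depth was near equal at both ends. High cells had 700000 to 4200000 reads with a median of 2450000, and low cells had 1000000 to 4700000 reads with a median of 2500000. A median of 12085 genes was detected in a high cell and 11722.5 in a low cell. Ribosomal RNA took a median of 24.5% of TPM in high cells and 25.6% in low cells. The share of reads assigned to transcripts had a median of 88.7% in high cells and 86.6% in low cells.

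The cells carried the epithelial markers of their label at both ends. KRT8, a keratin of simple epithelia, was the most abundant of the 10 listed epithelial markers, with a mean of 1704 TPM in high and 2063 TPM in low cells. Markers of other cell types were at or near 0. None of the 3 fibroblast, 4 leukocyte, 4 endothelial and 5 hepatocyte markers listed in the table passed the expression filter. The 3 fibroblast markers summed to a mean of 0.485 TPM in high and 2.21 TPM in low cells, nearly all of it COL1A1. The 4 leukocyte markers summed to 0.208 and 0.390 TPM, with LYZ the most abundant.

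Genes were considered where their mean log2(TPM + 1) over all 91 live cells was at least 1, which left 9925 genes besides the 10 of the score. A gene was called when the means of log2(TPM + 1) in high and low cells differed by at least 1, that is 2-fold on this scale. This scale understates the change of genes with few transcripts. Of the 9925 genes, 745 (7.51%) were higher and 86 (0.866%) were lower in high cells. The median difference of all genes considered was 0.22, so that differences are read against 0.22 and not against 0. After rescaling each cell by its median ratio over widely detected genes and ranking the cells again, the median was 0.03, and 544 genes (5.48%) were called higher and 1.66% of genes lower. The share of calls that were higher was thus 89.7% as deposited and 76.7% after rescaling.

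Of 24 genes of the G1/S switch, 14 were called higher in high cells and none lower, with a median difference of 1.45. Of the 24, 18 lay above 0, as did 6891 of the 9925 genes considered. Under rescaling 1 regulator was called lower and 12 higher. CCNE2, which encodes cyclin E2, ranged from 0 to 72.5 TPM in high cells with a median of 16.1 TPM. In low cells CCNE2 was listed at 0 in 28 of 30 and reached 4.19 TPM at most. No low cell exceeded the high cells' median, and the difference was 3.65. The sister gene CCNE1 was sparser, at 0 to 33.01 TPM with a median of 7.29 in high cells and at 0 in 20 of 30 low cells, with a difference of 1.95.

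E2F1, an activator E2F, had a median of 10.8 TPM in high cells with a range of 0 to 36.9. It was listed at 0 in 24 of 30 low cells and reached 7.51 TPM there. The difference was 3.15. E2F8, a repressor E2F that is itself an E2F target, differed by 3.10, with medians of 10.5 and 0 TPM. CDK2, the kinase partner of cyclin E, was detected in all high cells at 23.2 to 92.5 TPM and differed by 2.45. Its low cells ran from 0 to 49.1 TPM, so that the groups overlapped in range, but no low cell exceeded the high cells' median of 58.4 TPM.

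**Figure D1:**
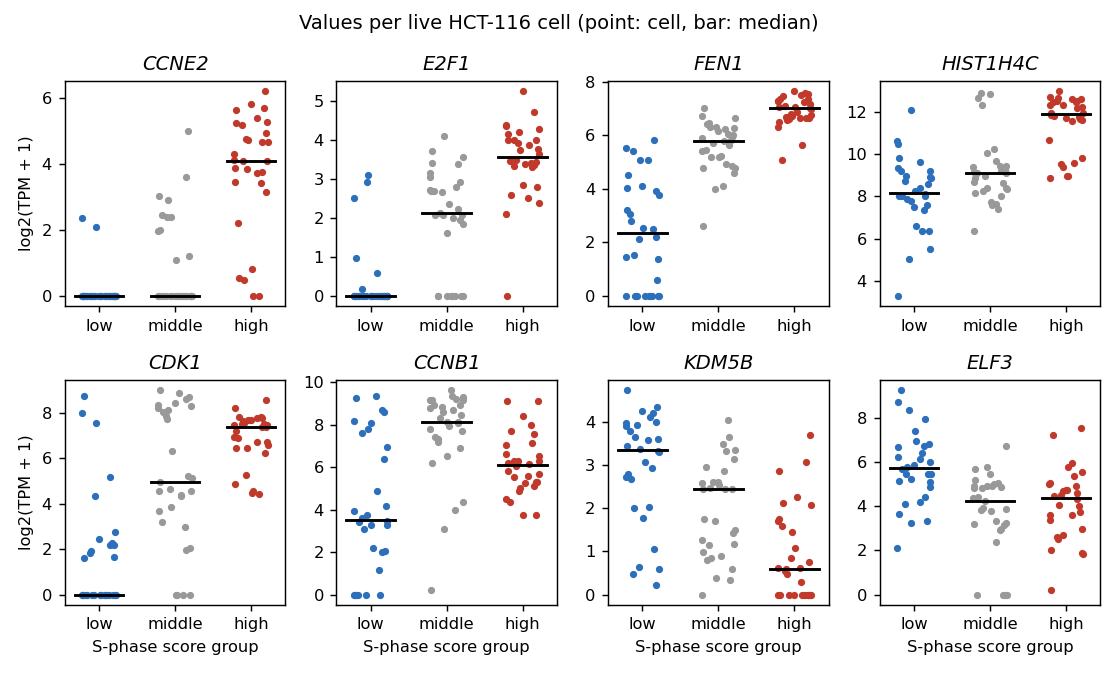
Level of 8 genes as log2(TPM + 1) in each of the 30 low, 31 middle and 30 high cells. Points are cells and bars are group medians. CCNE2 had a median of 0 in low and middle cells, CCNB1 was highest in the middle cells, and KDM5B and ELF3 had their highest medians in low cells.

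Licensing genes were called higher in 8 of 12 cases, with none lower and a median of 1.63. ORC6, a subunit of the origin recognition complex, had a median of 53.1 TPM in high cells (3.19 to 115.7) and 0.0438 in low cells (0 to 59.7). The difference was 4.28. GMNN encodes geminin, the inhibitor of CDT1 that blocks relicensing. It was found in all high cells at 50.8 to 180.1 TPM, with a median of 121.6, and in low cells at 0 to 92.2 TPM, with a median of 13.2. ORC1 differed by 3.31 and MCM3, a subunit of the MCM helicase that is not in the score, by 2.55.

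Helicase activation and fork genes were higher nearly throughout. All 15 lay above 0, 14 were called higher, and the median difference was 2.13. MCM10, which helps to activate the loaded helicase, ranged from 2.08 to 48.3 TPM in high cells and from 0 to 6.55 TPM in low cells, with medians of 26.7 and 0. It differed by 4.14, and no low cell exceeded the high cells' median. GINS1 (3.25), CLSPN (3.01), which encodes the checkpoint adaptor claspin, and CDC45 (2.98) followed.

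Polymerase and primase genes were called higher in 9 of 12 cases. POLE2, a subunit of the leading-strand polymerase epsilon, differed by 3.41, with medians of 30.6 TPM in high and 0.258 TPM in low cells. POLA2 and PRIM1, of the primase complex, differed by 2.86 each. The exception was POLD4, named here after its values were seen. It encodes the smallest subunit of polymerase delta and was lower by 1.29. POLD4 ran from 0 to 38.6 TPM in high cells with a median of 13.6, and from 3.03 to 85.1 TPM in low cells with a median of 23.5. In 28 of 30 high cells it lay below the low cells' median.

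Clamp loading and Okazaki fragment genes were called higher in 18 of 19 cases, with a median of 1.73. FEN1, the flap nuclease that trims Okazaki fragments, ranged from 33.2 to 200.4 TPM in high cells, with a median of 128.8. In low cells it ranged from 0 to 56.01 TPM with a median of 4.18. Every low cell lay below the high cells' median and the difference was 4.55. DSCC1, of an alternative clamp loader, differed by 3.87, and RFC4 and RFC5, of the canonical loader, by 3.54 and 3.34.

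Nucleotide synthesis genes differed less, with 9 of 18 called higher, none lower and a median difference of 1.01. DCK, a salvage kinase, differed by 2.16 and RRM1, the large subunit of ribonucleotide reductase, by 2.06. TK1, thymidine kinase, was abundant in both groups. It had 257 to 894 TPM in high cells, with a median of 441, and 0.249 to 437 TPM in low cells, with a median of 173.3.

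Chromatin assembly genes were called higher in 12 of 16 cases, with a median of 1.87. ASF1B, a histone chaperone, had medians of 75.6 and 3.21 TPM and differed by 4.07. CHAF1B and CHAF1A, of the chromatin assembly factor that deposits histones behind the fork, differed by 3.30 and 2.68. H2AFX, a histone variant gene, differed by 2.64.

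Replication-dependent histone genes split. Such transcripts mostly end in a stem-loop without a poly-A tail, and of 45 in the table only 18 passed the filter. Of these, 8 were called higher and 3 lower, and near-identical copies can share reads. HIST1H4C ranged from 469 to 7934 TPM in high cells, with a median of 3779.5, and from 8.91 to 4327.5 TPM in low cells, with a median of 289. Only 1 low cell exceeded the high cells' median, and the difference was 3.31. HIST1H2AJ differed by 4.28, HIST1H1E by 2.88 and HIST1H2AH by 2.66.

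The 3 lower genes, named after their values were seen, were HIST1H2BD (−1.63), HIST1H2AC (−1.49) and HIST1H2BK (−1.03). Some histone genes of this kind are known to give polyadenylated transcripts outside S phase. HIST1H2BD had a median of 11.1 TPM in low cells, where it reached 449.7 TPM, and 0.682 TPM in high cells, where it reached 55.7 TPM. The median level of the 18 genes was 3.40 in high, 1.80 in middle and 1.93 in low cells on the log2(TPM + 1) scale.

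DNA repair genes were called higher in 26 of 28 cases, with none lower and a median of 2.28. EXO1, an exonuclease of mismatch repair and recombination, ranged from 0 to 71.1 TPM in high cells with a median of 29.2. It was listed at 0 in 25 of 30 low cells and its difference was 4.14. RAD54L, a motor protein of homologous recombination, differed by 3.33 and BLM, a helicase, by 3.01.

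**Figure D2:**
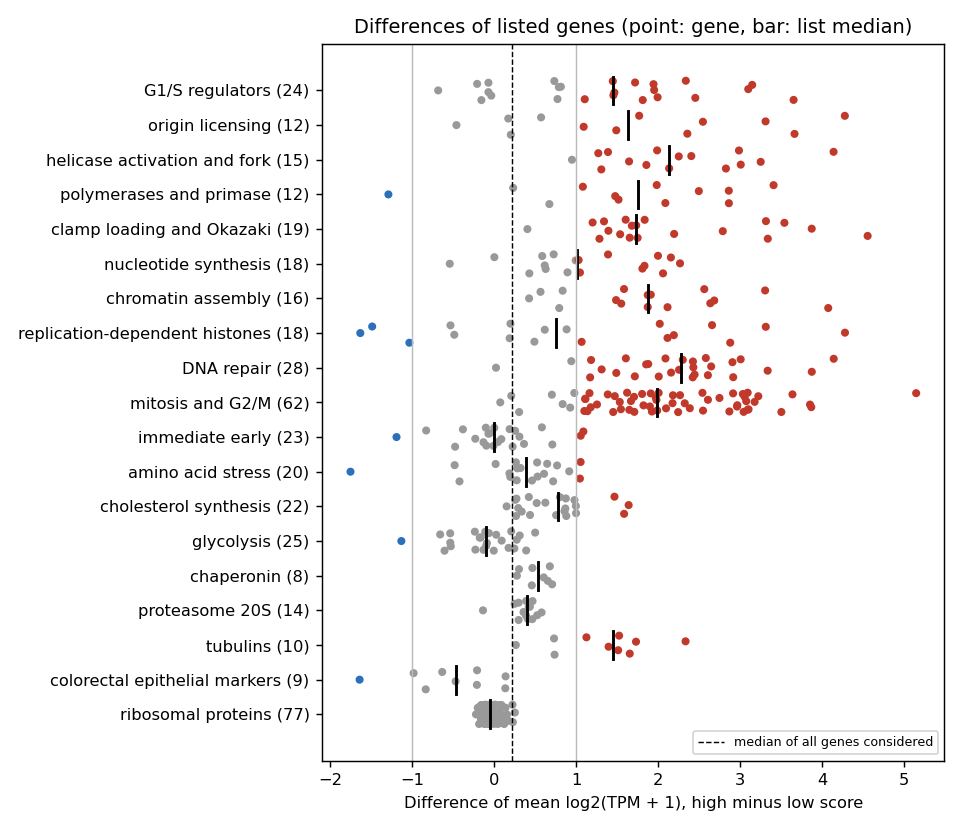
Difference of mean log2(TPM + 1) between high and low cells for each gene that passed the filter, by gene list, with the number of genes in brackets. Black bars are list medians, grey lines mark −1 and 1, and the dashed line is the median of all genes considered (0.22). Replication, repair and mitosis lists lie to the right, and ribosomal protein genes lie within −0.22 to 0.25.

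Genes of mitosis and G2/M were also higher in high cells, with 55 of 62 called higher, none lower and a median of 1.98. CDK1, the kinase that drives entry into mitosis, had the largest difference of all genes considered, 5.15. It ranged from 20.4 to 376 TPM in high cells, with a median of 165.5, and was listed at 0 in 16 of 30 low cells. CDK1 was not low in every low cell: it reached 430 TPM, and 3 low cells exceeded the high cells' median. UBE2C, the ubiquitin-conjugating enzyme of the anaphase-promoting complex, differed by 3.87. AURKB, of the chromosomal passenger complex, differed by 3.85 and MAD2L1, of the spindle checkpoint, by 3.64.

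CCNB1 encodes cyclin B1, the mitotic partner of CDK1, and it overlapped more. It ranged from 12.4 to 555 TPM in high cells with a median of 68.4, and from 0 to 656 TPM in low cells with a median of 10.5. In 10 low cells it exceeded the high cells' median, and the difference was 1.97 with an SD of 3.18 over low cells. The proliferation marker MKI67 differed by 1.55, with medians of 8.26 and 0.801 TPM. The difference for these genes depended on how cells were averaged. As a log2 ratio of mean TPM + 1, CDK1 differed by 2.19, CCNB1 by only 0.03, and 26 of the 62 mitosis genes were called.

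A mitotic level was computed for each cell as its mean log2(TPM + 1) over the 62 mitosis genes. It was 4.70 ± 0.83 in high cells and 2.59 ± 1.86 in low cells (mean ± SD over 30 cells each), with medians of 4.63 and 1.499. The middle cells had the highest median, 5.50. Of 30 high cells, 17 lay above the median of all live cells (4.41), that is 56.7%. Of 30 low cells, 5 did, or 16.7%. The median was taken over the same live cells, so these counts depend on each other, and no interval is given.

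**Figure D3:**
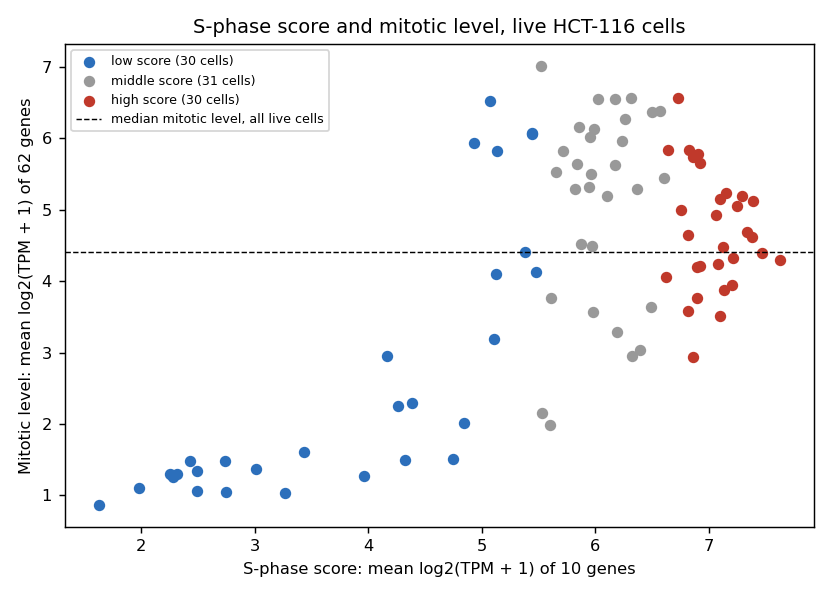
S-phase score (horizontal) against mitotic level (vertical) of 91 live HCT-116 cells, each the mean log2(TPM + 1) of its genes. Cells with the lowest scores had mitotic levels near 1, middle cells ranged from 1.98 to 7.02, and 5 low cells stood above the dashed median of 4.41.

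The 5 low cells above that median stood apart from the other 25. Their scores were 4.93 to 5.45, at the upper end of the low group, and their mitotic levels were 5.82 to 6.53. The mitotic level that set these 5 cells apart was itself computed from mitosis genes. CCNB1 ranged from 220.4 to 656 TPM in the 5 cells, with a median of 414.1. In the other 25 it ranged from 0 to 384.4 TPM with a median of 8.72, so that the ranges overlapped. UBE2C had medians of 638 and 4.35 TPM. FEN1 too was higher in the 5 cells, with medians of 32.9 and 1.90 TPM, while CCNE2 had a median of 0 in both. High mitotic levels in the low group were thus found near its upper score limit.

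Without the cells above the median mitotic level, 13 high and 25 low cells remained. Helicase and fork genes were then called higher in 15 of 15 cases and clamp loading genes in 18 of 19. The replication-dependent histone list differed less, with a median of 0.26 against 0.75 with all 60 cells. Of its 18 genes 10 lay above 0, against 13 before, and 4 were called lower, against 3. Mitosis genes were called higher in 50 of 62 cases with a median of 2.01. The cells left out were chosen on these same 62 genes, so this count is not independent of the choice. In all, 961 genes (9.68%) were then called higher and 253 (2.55%) lower.

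Replication and mitosis genes differed in their order over the 3 groups. The middle cells lay between low and high cells for 625 of the 745 higher genes. In 5 they lay below the low cells, and in the rest they exceeded the high cells, among these 43 of the 55 mitosis genes called higher. None of the higher genes of the G1/S, licensing, helicase, polymerase, clamp loading, nucleotide or repair lists exceeded the high cells in the middle cells. The 30 cells with the highest mitotic level held 6 high, 19 middle and 5 low cells. The 30 cells with the lowest mitotic level held 2 high, 6 middle and 22 low cells.

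**Figure D4:**
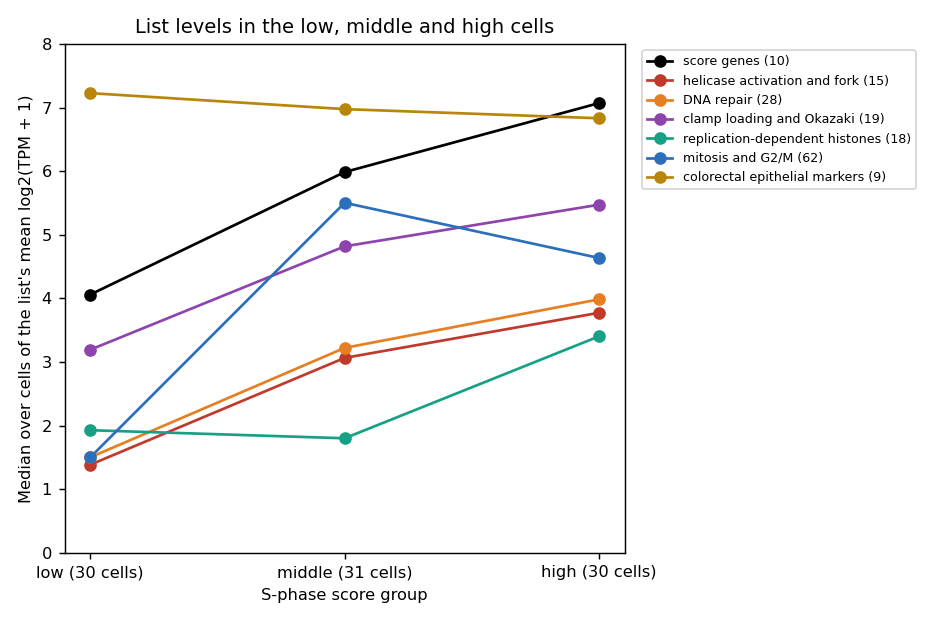
Median over cells of the mean log2(TPM + 1) of 7 gene lists in low, middle and high cells, with the number of genes in brackets. The mitosis list peaked in the middle cells (5.50 against 4.63 in high cells), the repair, helicase and clamp loading lists increased from low to high, and the histone list was highest in the high cells (3.40 against 1.80 and 1.93).

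Promoter sequence was examined for the letters of 2 elements known in cell cycle genes. An E2F site was taken as TTTCCCGC, TTTGGCGC, TTTCGCGC or TTTGCCGC on either strand, and a CHR, an element bound by the DREAM complex, as TTTGAA on either strand. Windows ran from 250 bases before to 50 bases after each RefSeq start (GRCh38.p14). Of 27305 RefSeq genes with a window, 3.99% held the E2F letters and 18.2% the CHR letters.

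Of the genes considered 78.6% were matched, and of these 7.26% held the E2F letters and 13.1% the CHR letters. The E2F letters were found in 6 of 12 matched licensing genes, 6 of 13 helicase and fork genes, 5 of 11 polymerase genes, 7 of 25 repair genes, 3 of 16 nucleotide genes and 2 of 16 chromatin assembly genes. Clamp loading genes held them in 3 of 14, but only 73.7% of that list was matched. Over the 7 replication and repair lists together, 120 genes were looked up, and of those matched 29.9% held the E2F letters and 11.2% the CHR letters. Of 62 mitosis genes 52 were matched, and 5.77% held the E2F letters and 65.4% the CHR letters. More than 1 window was searched for 29.9% of the replication and repair genes and 15.4% of the mitosis genes, against 19.01% of all RefSeq genes and 28.7% of the genes considered. A match of at least 80% was set for reading a share, and the clamp loading list, the genes considered and the 745 higher genes (79.1% matched) fell short of it.

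The following stretches are shown because they are the E2F letters, in capitals, within 100 bases before the start of the 5 genes with the largest differences that had such a match. Each is written 5′ to 3′ on the strand of the gene, and the capitals read GCGGGAAA or GCGCCAAA where the match is on the other strand. They are HIST1H2AJ (difference 4.28, chr6:27814804-27814843, minus strand), CDCA5, a cohesin regulator (3.74, chr11:65084062-65084101, minus strand), GMNN (3.66, chr6:24775317-24775356, plus strand), RFC3, a clamp loader subunit (3.31, chr13:33818078-33818117, plus strand) and MND1, a recombination factor (3.28, chr4:153344638-153344677, plus strand).
HIST1H2AJ: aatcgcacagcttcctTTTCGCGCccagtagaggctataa
CDCA5: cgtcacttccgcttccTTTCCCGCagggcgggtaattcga
GMNN: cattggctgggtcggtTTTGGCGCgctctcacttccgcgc
RFC3: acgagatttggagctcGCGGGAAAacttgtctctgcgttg
MND1: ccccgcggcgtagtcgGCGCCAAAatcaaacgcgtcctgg

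For the mitosis list, the CHR letters are shown in capitals for the 3 eligible genes with the largest differences and a match in the same stretch. The same limits on chromosome and flanking bases were applied. They are CDK1 (5.15, chr10:60778393-60778430, plus strand), BUB1B, a spindle checkpoint kinase (3.07, chr15:40161030-40161067, plus strand) and CDCA8, of the chromosomal passenger complex (3.04, chr1:37692477-37692514, plus strand). A match is a description of the letters, and binding was not measured.
CDK1: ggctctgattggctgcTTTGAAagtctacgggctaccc
BUB1B: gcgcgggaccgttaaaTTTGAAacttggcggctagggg
CDCA8: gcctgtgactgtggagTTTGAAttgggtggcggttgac

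The 10 largest increases among genes in none of the lists began with PKMYT1 (4.46). PKMYT1, the kinase that holds CDK1 inactive, ranged from 23.2 to 135.8 TPM in high cells with a median of 71.1, and was listed at 0 in 18 of 30 low cells. DTL, the substrate adaptor of the ubiquitin ligase that destroys CDT1 on replicating DNA, had medians of 25.1 and 0 TPM and differed by 3.81. No low cell exceeded the high cells' median of PKMYT1 or DTL.

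The others were CENPQ (3.77), ZWINT (3.58) and SPC25 (3.35) of the kinetochore, CDCA5 (3.74), NCAPH (3.52) of condensin, MELK (3.70), a mitotic kinase, PSMC3IP (3.51), a recombination factor, and FBXO5 (3.51), the inhibitor of the anaphase-promoting complex. FBXO5 had a median of 48.2 TPM in high, 8.52 TPM in middle and 1.67 TPM in low cells.

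Tubulin genes were called higher in 7 of 10 cases, with a median of 1.45. TUBA1B, a main alpha-tubulin, ranged from 255 to 1882 TPM in high cells with a median of 1359, and had a median of 170 TPM in low cells. Of 22 cholesterol synthesis genes, all differed by more than 0 (19 under rescaling), as did 6891 of the 9925 genes considered (5244 under rescaling). The median was 0.78, and 3 of the 22 were called higher, against 7.51% of all genes considered. Among the 3 were INSIG1 (1.64), the feedback regulator of the pathway, and EBP (1.58), a sterol isomerase. Under rescaling the same list had a median of 0.45 and 3 calls, and with 45 cells at each end a median of 0.39 and 1 call. Of all genes 5.48% and 4.28% were called higher in these settings.

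Chaperonin subunits (8 genes, median 0.54) and 20S proteasome subunits (14 genes, median 0.40) gave no call, and their medians were 0.29 and 0.18 under rescaling. The 77 ribosomal protein genes gave no call, and their differences ran from −0.22 to 0.25 with a median of −0.05. Their median was −0.22 under rescaling.

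The 86 genes that were lower in high cells included POLD4 and the 3 histone genes above. KDM5B, a demethylase of histone H3 lysine 4, had the largest decrease of all genes considered, −2.00. It ranged from 0 to 11.9 TPM in high cells with a median of 0.509, and from 0.163 to 25.6 TPM in low cells with a median of 9.16. KDM5B was listed at 0 in 11 of 30 high cells and in none of the low cells, and the middle cells had a median of 4.42 TPM. The ranges overlapped, but 29 of 30 high cells lay below the low cells' median.

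The other large decreases among genes in none of the lists were the following. KRT15 (−1.96) and KRT80 (−1.91) encode keratins, LAMB3 (−1.57) a chain of the basement membrane protein laminin, TSPAN1 (−1.93) a membrane tetraspanin and S100A14 (−1.53) a calcium-binding protein. KRT15 had a median of 8.59 TPM in low cells, with a highest value of 134.3 TPM, and 0.782 TPM in high cells, with a highest value of 21.4 TPM. TSPAN1 reached 428 TPM in low cells and 22.7 TPM in high cells. PTGES, a prostaglandin E synthase, differed by −1.57 and C11orf71 by −1.60.

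The remaining decreases were SNORD139 (−1.66) and MIR21 (−1.63), short RNA genes inside longer transcripts. They were listed at 0 in 17 and 20 of 30 high cells and in 11 and 14 of 30 low cells, and reads of the host transcript cannot be told apart from theirs.

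Of the epithelial markers, 9 passed the filter, with none called higher, 1 lower (against 0.866% of all genes considered) and a median of −0.47. The call was ELF3, an epithelial transcription factor, at 0.161 to 188.3 TPM in high cells and 3.32 to 616 TPM in low cells, with medians of 19.9 and 51.7 and a difference of −1.64. KRT19 differed by −0.98, with medians of 645 and 1049.7 TPM, and CLDN4, a tight junction claudin, by −0.83. Under rescaling 3 of the 9 were called lower, with a median of −0.77. With 20 cells at each end or without cells above the median mitotic level 4 were. Of all genes 1.66%, 2.34% and 2.55% were called lower in these settings. With 45 cells at each end none was called, and the lowest difference was −0.85. Within the low group, ELF3 was lower in the 5 cells rich in mitotic transcripts (3.32 to 20.7 TPM, median 11.5) than the median of 62.7 TPM in the other 25. In fixed HCT-116 cells split in the same way 1 of 9 epithelial markers was called lower, with a median of −0.18. In live and fixed HepG2-labelled cells none of 8 was called, with medians of 0.10 and 0.06.

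GDF15, a secreted stress cytokine, differed by −1.60. It had a median of 187.4 TPM in high cells and 846 TPM in low cells, with ranges of 1.79 to 2149 and 0 to 2582. CDKN1A encodes p21, an inhibitor of cyclin-dependent kinases. It ranged from 0 to 360 TPM in high cells with a median of 30.2, and from 0 to 1441 TPM in low cells with a median of 87.8. The difference of −0.83 (−1.05 under rescaling) was smaller than the SD over cells, which was 2.10 in high and 2.94 in low cells, and 18 low cells exceeded the high cells' median. Within the high group CDKN1A had a median of 101.6 TPM in the 17 cells above the median mitotic level and 18.8 TPM in the other 13. Without the cells above that level, GDF15 differed by −3.54 and CDKN1A by −2.23. As log2 ratios of mean TPM + 1 over all 60 cells, GDF15 differed by −0.84 and CDKN1A by −1.61.

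Of 20 amino acid stress genes, 17 lay above 0, as did 6891 of the 9925 genes considered. The list's median was 0.39 against 0.22 for all genes considered, with 2 called higher and 1 lower. Over all genes considered 7.51% were called higher and 0.866% lower, so 2 of 20 is near the background. PSAT1 and PHGDH of serine synthesis were the calls higher at 1.05 each, but were not called under rescaling (0.73 and 0.87). DDIT4, an inhibitor of mTORC1 signalling, was the call lower at −1.75, with medians of 35.3 and 173.1 TPM. As log2 ratios of mean TPM + 1 DDIT4 was not called, and the lowest difference of the list was −0.69. In fixed HCT-116 cells split in the same way the list's median was 0.87, with 8 of 19 called higher and 2 lower. All genes there had a median of 0.31, with 13.6% called higher and 1.19% lower. In live and fixed HepG2-labelled cells the list's median was 0.56 in both, against 0.42 and 0.34 for all genes. Called higher there were 4 of 16 and 5 of 16, with 1 lower in each, against 12.9% and 11.4% of all genes called higher.

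Of 23 immediate early genes, 2 were called higher, DUSP6 (1.09) and FOSL1 (1.06), and NR4A1 was called lower (−1.19). Over all genes considered 7.51% were called higher, so 2 of 23 is near the background, and the list's median was 0.00. Neither DUSP6 nor FOSL1 was called under rescaling (0.93 and 0.77). NR4A1 was not called with 45 cells at each end or with a score from 10 other genes. The list's lowest differences were then −0.96 and −0.98. FOS itself, an AP-1 subunit induced within minutes of stimulation, differed by 0.05 (−0.13 under rescaling), with medians of 103.8 and 122.4 TPM. Of 25 glycolysis and hypoxia genes, NDRG1 was called lower (−1.13), against 0.866% of all genes considered. The list's median was −0.10 (−0.32 under rescaling). The number called lower was 7 as log2 ratios of mean TPM + 1, 5 with 20 cells at each end, 2 under rescaling or without cells above the median mitotic level, and 0 with 45 cells at each end, with cells matched on total reads or without ribosomal RNA. In fixed HCT-116 cells 5 of 25 were called lower with a median of −0.36, against 1.19% of all genes and a median of 0.31. The list's medians were 0.77 in live and 0.48 in fixed HepG2-labelled cells, where all genes had medians of 0.42 and 0.34.

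The same split was then made in cells that the rule had not used. Fixed HCT-116 cells came from the same culture, in 80% methanol for 1 week, and gave 30 cells at each end of 92. The score genes were again those of the rule, so the difference in score is fixed by the split. In fixed cells 1224 of 9013 genes (13.6%) were called higher and 1.19% lower. Of the 745 genes higher in live cells, 708 were measured in fixed cells, and 548 were called higher there, which is 77.4% of the 708 and 44.8% of the 1224. In all, 697 of the 708 lay above 0, against 72.4% of all genes measured in both.

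Of the 86 lower genes, 77 were measured in fixed cells and 58 lay below 0 there (75.3%), against 27.6% of all genes. The 22 called lower are 28.6% of the 77 and 20.6% of the genes called lower there. KDM5B differed by −2.36 in fixed cells, DDIT4 by −1.56, KRT15 by −1.39 and ELF3 by −1.23. SNORD139 (0.56) and S100A14 (0.07) did not keep the sign. Among higher genes CDK1 differed by 6.16 in fixed cells, FEN1 by 5.44 and CCNE2 by 4.22, and whether these differ from the live values was not tested.

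**Figure D5:**
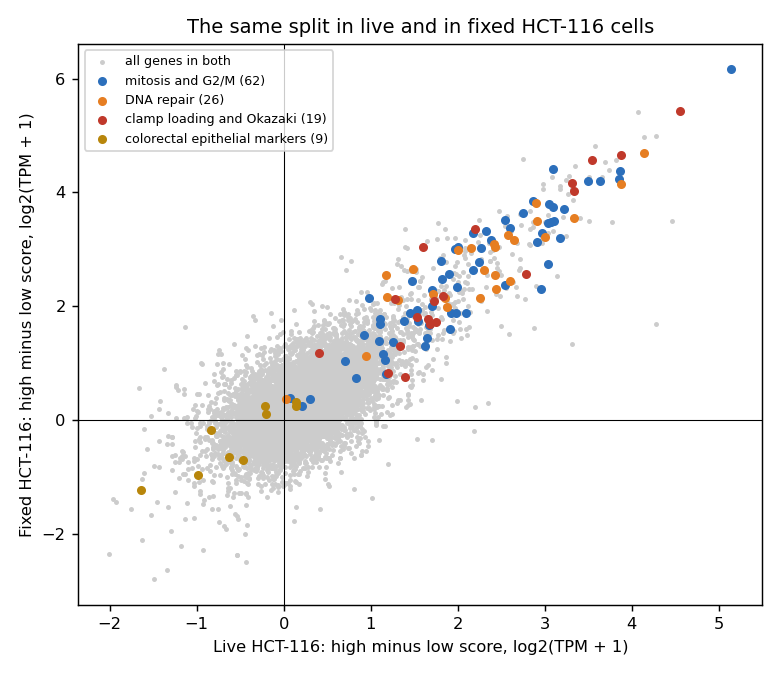
Difference of mean log2(TPM + 1), high minus low score, in live HCT-116 cells (horizontal) and in fixed HCT-116 cells (vertical), 30 cells at each end of both. Grey points are genes measured in both, coloured points are 4 gene lists with the number of genes in brackets. Most mitosis, repair and clamp loading genes lie at the upper right and a few near 0 on both axes, and CDK1 lies farthest out at 5.15 and 6.16.

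Cells labelled HepG2, a liver-derived line, were split in the same way. The study made these in 2 separate experiments, which the columns do not tell apart, so that either end may mix cells of both. Their hepatocyte markers went against the label: APOA1, TTR, SERPINA1, FGB and TF had a median of 0 TPM in live and in fixed HepG2-labelled cells. The markers ALB, APOA2 and APOB were not listed for these cells. SERPINA1 was above 0 in 20 of 68 live and 28 of 83 fixed HepG2-labelled cells. In HCT-116 it was above 0 in 10 of 91 live and 9 of 92 fixed cells. The HepG2-labelled cells are therefore called by their label. In 1 case a live and a fixed column hold equal values at all 29551 genes. In live HepG2-labelled cells (22 at each end of 68), 12.9% of 8785 genes were called higher and 0.512% lower. In fixed ones (27 at each end of 83), 11.4% of 8498 genes were called higher and 0.4% lower.

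Of the 704 genes higher in live HCT-116 cells and measured in live HepG2-labelled cells, 679 lay above 0 there (96.4%, against 82.7% of all genes), and in fixed ones 656 of 676 did (97.0%, against 77.5%). Of the same genes, 474 of 704 were called higher in live HepG2-labelled cells, which is 67.3% of the 704 and 41.9% of the 1131 called there. Without the shared column this was 443 of 705, or 62.8% of the 705 and 50% of the 886 called there. In fixed HepG2-labelled cells it was 438 of 676, or 64.8% of the 676 and 45.1% of 972. Without the shared column it was 419 of 677, or 61.9% of the 677 and 48.9% of 857.

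The lower genes are set against their own, smaller backgrounds. In live HepG2-labelled cells 37 of 65 lay below 0 (56.9%, against 17.3% of all genes), and 41 of 65 without the shared column. In fixed ones 38 of 58 did (65.5%, against 22.5%), and 40 of 58 without the shared column. Called lower there were 7 of 65 in live cells (10.8% of the 65, against 0.512% of all genes, and 15.6% of the 45 called there), or 10 of 65 without the shared column, and 8 of 58 in fixed cells (13.8% of the 58, against 0.4% of all genes, and 23.5% of the 34), which was also 8 of 58 without the shared column. ELF3 differed by −0.02 in live and −0.37 in fixed HepG2-labelled cells, and KRT15 by 0.21 and 0.40. KDM5B differed by −0.90 and −1.17 and DDIT4 by −1.47 and −2.23.

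The replication-dependent histone list did not keep its sign. Its median, 0.75 in live HCT-116 cells, was −0.18 over 11 genes in fixed HCT-116 cells, −0.59 over 17 in live and −0.34 over 15 in fixed HepG2-labelled cells. In these sets 4, 5 and 3 histone genes were called higher and 4, 6 and 4 lower. Of all genes there, 13.6%, 12.9% and 11.4% were called higher and 1.19%, 0.512% and 0.4% lower. The medians of all genes were 0.31, 0.42 and 0.34. HIST1H1C, named after its values were seen, differed by 2.19 in live HCT-116 cells and by −0.18, 0.25 and 0.30 in the other sets. HIST1H2BD differed by −2.50 and −1.51 in the HepG2-labelled cells and by −2.10 in fixed HCT-116 cells, and HIST1H2AC by −2.66, −1.92 and −2.79. HIST1H4C was higher by 3.13 and 1.05 in the HepG2-labelled cells and by 1.33 in fixed HCT-116 cells.

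CCNE2 was higher in each of these sets, by 4.18 in live and 3.55 in fixed HepG2-labelled cells. Repair genes were called higher in 25 of 26 cases in fixed HCT-116 cells and in 25 of 28 in both HepG2-labelled sets. Mitosis genes were called higher in 57, 51 and 53 of 62 cases in fixed HCT-116, live HepG2-labelled and fixed HepG2-labelled cells. The shares of all genes called higher there were 13.6%, 12.9% and 11.4%. CDKN1A differed by −0.34, 0.51 and −0.12 in the same order, and GDF15 by −0.92, −0.23 and 0.17.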

How the data were processed

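Single cells were profiled by Smart-seq2, and each column of the deposited tables is 1 cell. The authors quantified reads with kallisto 0.46.0 (GRCh38 and FastQC are also named in the submitters' processing notes), summed transcripts to genes with tximport and kept cells with more than 4000 genes. The gene values they deposited are TPM. The HCT-116 transcript table deposited beside it behaves as CPM, and was used only to find each cell's total reads, from the step at which the most low values come out whole (22.6% to 38.1% of low values in a cell, tolerance 0.0001, the rest being fractional estimates). No count model was run.

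Cells were ranked on the mean log2(TPM + 1) of the 10 score genes, and 30 were taken from each end. Genes needed a mean log2(TPM + 1) of at least 1 over all 91 live cells, and were called at a difference of 1 or more. The members and lists were chosen with earlier results of these data known. The genes named were, for each list, up to 4 with the largest absolute difference, with CCNE1, CCNE2, E2F1, CDKN1A, FOS, MKI67 and CCNB1, and the 10 largest increases and decreases in no list. Others are marked where they were named after their values were seen, or were shown for their promoter matches, cell type marker roles or score membership. In shuffled values, a known change put into 200 genes was recovered approximately in their median difference. The groups there were not chosen by a score. Promoter sequences are from RefSeq (GRCh38.p14), and older symbols were matched through synonyms. A total of 24 date-like symbols stayed as listed. Columns name a group but not a sample title. Python 3.11.15, numpy 2.4.6, pandas 2.3.3 and scipy 1.17.1 were used. Some listed genes and 1 gene list are not reported here.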

Additional observations from a re-analysis of the deposited data

How the results depend on the processing

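No paired analysis was possible because the columns carry no replicate number that pairs cells and no result comes from a test. High and low cells matched on total reads (22 of each) gave 854 genes higher and 1.06% of genes lower. All 60 cells share 1 culture, the groups were chosen on expression, and the number of calls depends on the scale. Over 12 alternatives, 1304 of 1340 values of the named genes moved by less than the SD over cells and 36 by more (30 of these with a pseudocount of 0.1), and no difference of at least 1 turned its sign. That SD is wide. List medians also moved. The mitosis list ran from 0.93 as log2 ratios of means, with 26 of 62 genes called against 55, to 3.38 with a pseudocount of 0.1. Over the alternatives the repair list ran from 1.67 to 3.65, helicase and fork genes from 1.59 to 3.62, G1/S genes from 0.80 to 2.16, histones from 0.21 to 2.19 and amino acid stress genes from 0.14 to 0.89.

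The share of genes called higher (7.51%) and lower (0.866%) became 17.1% and 3.19% with a pseudocount of 0.1, 2.76% and 0.354% with no filter, 8.47% and 0.404% at a filter of 3, 13.2% and 2.34% with 20 cells at each end, 4.28% and 0.212% with 45 cells at each end, and 4.31% and 1.59% as log2 ratios of mean TPM + 1. The share of lower genes became 1.66% after rescaling and 2.55% without cells above the median mitotic level. These correspond to 1695 higher and 317 lower genes with a pseudocount of 0.1, against 745 and 86. A score from 10 other genes kept 27 of the high and 25 of the low cells, and 663 of the 745 and 56 of the 86 genes.

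The share of called genes with the same direction in other cells was taken over the genes called under each setting, so that the genes change with it. With a pseudocount of 0.1 it was 93.6% in fixed HCT-116, 94.3% in live HepG2-labelled and 93.6% in fixed HepG2-labelled cells for higher genes (main values 98.4%, 96.4% and 97.0%), and 58.2%, 41.05% and 47.8% for lower genes (main values 75.3%, 56.9% and 65.5%). For higher genes in fixed HepG2-labelled cells it was 94.4% with no filter, 95.2% after rescaling and 94.7% without ribosomal RNA. The shared column was left out after the data were seen.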
